A study of Drosophila melanogaster and Drosophila simulans and Drosophila yakuba with 72 samples.

Results

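Mirtrons are microRNAs (miRNAs) made from short introns. The spliced intron is debranched and folds into a hairpin that Dicer cuts, so it does not pass through the Drosha step that makes most miRNA precursors. Because the intron ends are the hairpin ends, the 5p arm starts with the GU of the 5′ splice site and the 3p arm ends with the AG of the 3′ splice site. The members described here are the 4 mirtrons dme-miR-1003, dme-miR-1006, dme-miR-1010 and dme-miR-1012, chosen by name. They were represented by 10 of the 1339 miRNA reporters on the array, a reporter being a probe named for its target and spotted 3 times.

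The series measured miRNA in whole animals on 36 two-colour arrays that carried 72 samples in 18 groups of 4. Each group was a strain, a sex and a stage. The stages were PF, read here as puparium formation, when the larva becomes a prepupa, and an earlier one called early. The early stage was marked as at least 18 before PF, read here as hours. Females were sampled in Oregon-R and Zimbabwe-109 of Drosophila melanogaster and in a D. simulans stock labelled 14021-0251.167. Males were sampled in those 3, in Canton-S and Samarkand of D. melanogaster and in a D. yakuba stock labelled 14021-0261.00. All animals were raised at 25 degrees under constant lighting, with 0.05% bromophenol blue in the larval food, and each replicate was a pool of 60 to 80 animals. In whole animals, fewer cells that make a miRNA and less of it per cell cannot be told apart. Both stages of a strain, sex and replicate shared an array in opposite dyes, so a stage change was measured within arrays. The 72 samples lay on 7 slides, 5 with males only and 2 with females only, so for levels sex and slide cannot be told apart. Oregon-R males and Canton-S males each lay on a slide with no other D. melanogaster strain. Levels among the male strains were tested without a slide block, so there strain and slide were not separated.

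The target sequences show which arm each reporter reads. They are given 5′ to 3′ as the array files list them, in lower case with the seed, bases 2 to 8, in capitals, since the seed is the part by which a miRNA pairs with its targets. The 3p reporters, in whose names no other arm is marked, were these.
dme-miR-1003: uCUCACAUuuacauauucacag
dme-miR-1006: uAAAUUCGauuucuuauucauag
dme-miR-1010: uUUCACCUaucguuccauuugcag
dme-miR-1012: uUAGUCAAagauuuuccccauag
The 5p reporters carry names from D. simulans (dsi) or D. pseudoobscura (dps), and these were their targets.
dsi-miR-1003*: gUGGGUAUcuggaugugguugg
dsi-miR-1006*: gUGAGUUUgaaauugaaaugcguaaa
dps-miR-1006*: gUGAGUUUgaaauugaaauguguaaa
dps-miR-1010*: gUAAGUGGuguagaugaaaca
dsi-miR-1012: gUGGGUAGaacuuugauuaaua

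All 5 of these 5p targets began with GU, as did 5.3% of the 1339 targets on the array, and all 4 of the 3p targets ended with AG, as did 7.99%. The 4 3p arms had 4 different seeds. The seed of dme-miR-1003 was shared with dme-miR-1004, another mirtron, and that of dme-miR-1006 with ame-miR-1006, bmo-miR-2745 and a 3p reporter of miR-10. No other reporter had the seed of dme-miR-1010, of dme-miR-1012 or of dsi-miR-1012. Counting from 1 at the 5′ end, the 2 miR-1006 5p targets differed by U21C, dps-miR-1006* having the first base and dsi-miR-1006* the second. The remaining reporter, ame-miR-1006, carries the prefix of the honeybee and is not printed. The array lists dme-miR-1003, dme-miR-1006, dme-miR-1010 and dme-miR-1012 for D. melanogaster and D. simulans alike, and lists no member for D. yakuba. It names the arms of miR-1012 differently in these species. The 3p arm is miR-1012 in D. melanogaster and miR-1012* in D. simulans, where the 5p arm bears the plain name. None of the 5p reporters is listed for D. melanogaster. In the RefSeq D. melanogaster annotation (Release 6), each hairpin lies within 1 protein-coding gene. The gene of miR-1010 (71 bases, arm 3R) lies in SKIP, which encodes a protein that binds the Shal potassium channel. That of miR-1012 (59 bases, 3R) lies in Lerp, which encodes a lysosomal enzyme receptor. That of miR-1006 (64 bases, 2L) lies in VhaSFD, which encodes a subunit of the vacuolar proton pump. That of miR-1003 (56 bases, 3R) lies in CG6695.

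A reporter counted as detected in a sample when its median scanner intensity lay more than 3 standard deviations (SD) above the median of the array's empty spots. Of the 10 reporters, 2 were detected in most samples, and both read miR-1012. The 5p reporter dsi-miR-1012 was detected in 58 of 72 samples and the 3p reporter dme-miR-1012 in 54. For dme-miR-1010 the count was 27, made up of 18 of 24 female and 9 of 48 male samples. The 5p reporters dsi-miR-1006*, dsi-miR-1003* and dps-miR-1010* were detected in 19, 16 and 8 samples. dme-miR-1003 was detected in 8 samples, 7 of them D. melanogaster females. dme-miR-1006, dps-miR-1006* and ame-miR-1006 were detected in 0 of 72. The targets of dsi-miR-1012, dme-miR-1012 and dme-miR-1010 are 31.8%, 34.8% and 41.7% G and C. Those of dsi-miR-1006*, dsi-miR-1003*, dps-miR-1010* and dme-miR-1003 are 30.8%, 54.55%, 38.1% and 31.8%. Those of the undetected dme-miR-1006, dps-miR-1006* and ame-miR-1006 are 21.7%, 26.9% and 20.8%, against a median of 43.5% over all targets. Whether base content bears on detection was not tested. The scanner background differed between dyes, with empty-spot medians of 49.1 to 136 in Cy3 and 29.8 to 64.6 in Cy5. A sample called detected can therefore have a lower normalized value than one that is not. The lowest normalized log2 value above background in a sample ran from 4.70 to 7.76. dsi-miR-1003* averaged 6.33 in early Zimbabwe-109 females, with 3 of 4 samples detected. In early Canton-S males it averaged 6.43, with 0 of 4 detected. Females and males lay on different slides, so their detection counts can differ without a difference in level. dme-miR-1010 was detected in 13 of 36 Cy3 and 14 of 36 Cy5 samples, and dme-miR-1012 in 27 of each.

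**Figure D1:**
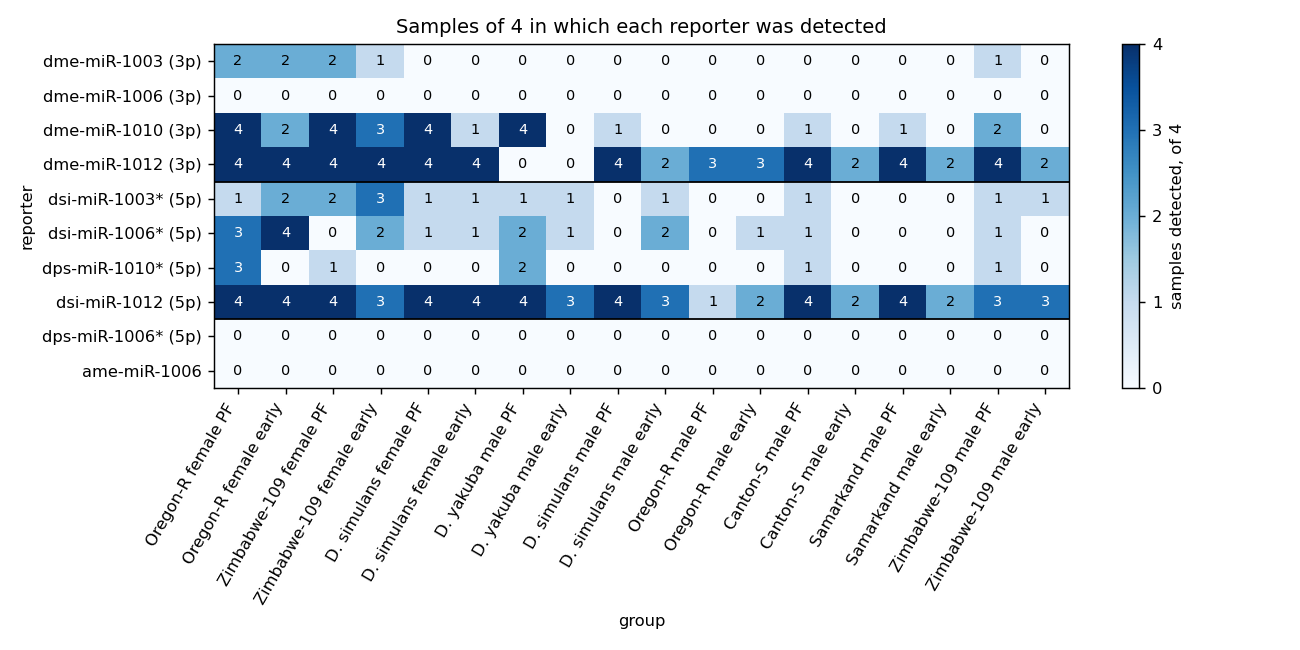
Number of samples, of 4, in which each of the 10 reporters (rows) was detected in each of the 18 groups (columns, PF left of early). dme-miR-1012 was detected in every group but those of D. yakuba, where the count was 0 of 4 at both stages, while dsi-miR-1012 was detected in 4 of 4 D. yakuba samples at PF.

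Of the other mirtrons on the array (miR-1004, miR-1005, miR-1007 to miR-1009, miR-1011, miR-1013 to miR-1016 and the tailed mirtron miR-1017), with 14 reporters, 0 passed the filter and 9 were detected in no sample. The 5 detected ones, named after their counts were seen, were dme-miR-1004 in 14 samples, dme-mir-1004-5p in 6, and dme-miR-1013, dsi-miR-1013 and dme-miR-1017 in 1 each.

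The markers of the labelled material were read in the same way. miR-1, the abundant miRNA of muscle, was detected in 72 of 72 samples, while miR-133, also of muscle, was detected in 2 PF and 5 early samples. miR-124, a miRNA of neurons, was detected in 11 PF and 2 early samples. let-7, miR-100 and miR-125, made from one precursor that ecdysone induces at the onset of metamorphosis, were detected in 36, 32 and 33 of 36 PF samples, against 26, 1 and 1 of 36 early samples. Of the 6 testis miRNAs miR-959 to miR-964, miR-964 was detected in 9 of 24 female and 32 of 48 male samples, and the 5 others in 0 female samples and in 0 to 3 male samples each.

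Normalized intensities are given on the log2 scale. On it the empty spots of a sample had a median of 5.82 to 6.09, which is the level of no signal. The background correction added an offset of 50 to the intensities, which shrinks differences of dim reporters. A fold given here is a ratio of normalized intensities that include this offset. Tests ran on 272 reporters, those above background in 3 or 4 samples of one group or more, with limma and a Benjamini-Hochberg adjustment over all 272 in each comparison. An adjusted p under 0.05 is a call, and SE is the standard error of a difference. Of the members, 6 of 10 passed this filter. dsi-miR-1003* and dps-miR-1010* passed it through 1 group each (Zimbabwe-109 female early and Oregon-R female PF), and dsi-miR-1006* through Oregon-R females alone, at both stages. A high value in those groups was part of their selection, so comparisons that rest on them are given as values without a p. The group means of the 6 spanned 5.93 to 9.12.

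Between the stages, the members moved as follows, PF set against early. In Oregon-R females, 3 of the 6 tested members rose and 2 fell, where 66.9% of all 272 reporters changed. In Zimbabwe-109 females, 2 rose and 1 fell (62.5% of reporters changed). In D. simulans females 1 rose (38.2%). In males, 1 rose in D. yakuba (45.2%) and 1 in D. simulans (44.1%). In the male D. melanogaster strains, 2 rose in Canton-S (47.1%), 1 rose in Samarkand (40.1%), 2 rose and 1 fell in Zimbabwe-109 (55.5%), and 0 changed in Oregon-R (32.4%; limma, 0 members at an unadjusted p under 0.05). Averaged over the strains of D. melanogaster, 3 rose and 2 fell in females (75.4% of all reporters changed) and 3 rose and 1 fell in males (67.3%). The share of the 6 members called was below the background in 8 of the 9 sets and above it in 1, Oregon-R females. In that set dps-miR-1010*, which rose, and dsi-miR-1006*, which fell, had passed the filter only through its groups, as had dsi-miR-1003*, which fell, in Zimbabwe-109 females. In the average over D. melanogaster females, the rise of dps-miR-1010* and the 2 falls include these groups, so they rest on that selection as well. The median stage change of the 6 members was 0.09 in D. melanogaster females and 0.12 in males, against 0.19 and 0.13 over all 272. The values of each member follow.

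dme-miR-1010, the 3p arm of miR-1010, was low or undetected at the early stage and was far higher at PF in D. melanogaster females. In Oregon-R females it measured 8.40, 8.57, 7.48 and 8.17 at PF, against 6.17, 5.86, 6.02 and 6.09 at the early stage. The 4 PF samples lay well above all 4 early ones, of which 2 were above background. In Zimbabwe-109 females the values were 8.23, 8.46, 9.25 and 7.66 at PF, against 6.49, 6.60, 7.03 and 6.49 early, and again the stages did not overlap. At PF the level was higher in Oregon-R females (log2 difference 2.12, SE 0.17, adjusted p = 6.33e-16). Their early mean, 6.04, lay within the range of the empty-spot medians, so no fold is given. In Zimbabwe-109 females, with 3 of 4 early samples above background, the level was 3.36-fold higher (1.75, SE 0.17, adjusted p = 5.07e-13). All 8 of these arrays had the higher value at PF.

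In D. simulans females dme-miR-1010 measured 7.22, 6.96, 7.64 and 7.24 at PF, against 6.53, 6.43, 6.61 and 6.52 early. Here too the stages did not overlap (log2 difference 0.74, SE 0.17, adjusted p = 0.000428). With 4 of 4 PF samples but 1 of 4 early ones above background, no fold is given. Against the mean of the D. melanogaster female sets the stage change was lower by 1.19 on the log2 scale (log2 difference -1.19, SE 0.21, adjusted p = 1.71e-05), one of 2 member calls, where 26.1% of reporters were called. The early levels behind this difference were near that of no signal, with 1 of 4 samples above background in D. simulans females and 5 of 8 in D. melanogaster females. At PF itself, where all 12 samples were above background, the D. simulans female level was 0.494 times that of D. melanogaster females (log2 difference -1.02, SE 0.21, adjusted p = 0.000238), again one of 2 member calls, both lower, where 29% of reporters differed. On the 1 slide that held D. simulans and Zimbabwe-109 females together, the PF difference was -1.19 (4 and 2 samples). At the early stage 0 of 6 members differed between these females by limma (0 at an unadjusted p under 0.05), where 36.4% of reporters did. With slide as a block more was called. At PF 2 members were then lower, the same ones, and 3 higher, where 52.2% of reporters differed, and at the early stage 2 were higher (60.3%). The block also moved the median difference of all 272 reporters to 0.18 at PF and 0.35 early. The members higher at PF were the 5p reporters dsi-miR-1012 (0.94, adjusted p = 0.000242), dsi-miR-1003* (0.44) and dsi-miR-1006* (0.43). Both dsi-miR-1003* and dsi-miR-1006* were above background in 1 of 4 samples of D. simulans females and 3 of 8 of D. melanogaster females. At the early stage they were dsi-miR-1012 (0.66, adjusted p = 0.00685) and dsi-miR-1003* (0.30).

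In males the 3p arm of miR-1010 was above background in 9 of 48 samples. Its group means there ran from 5.93 in Samarkand early to 7.18 in Zimbabwe-109 at PF. In Zimbabwe-109 males it measured 7.84, 6.53, 6.32 and 8.00 at PF, against 6.41, 5.86, 5.78 and 6.76 early. The samples of replicates 1 and 4 were the higher ones at both stages, and those 2 were the only ones detected, both at PF. All 4 arrays had the higher value at PF (log2 difference 0.97, SE 0.17, adjusted p = 2.99e-06). With 2 of 4 PF and 0 of 4 early samples above background, no fold is given. In D. yakuba males the values were 7.22, 7.09, 6.45 and 6.71 at PF, against 6.23, 6.21, 6.01 and 6.22 early. All 4 PF samples and no early sample were above background, the rise being at least 1.17-fold (fitted log2 difference 0.70, SE 0.17, adjusted p = 0.000594). For such bounds the level below background was taken, array by array, as that of the dimmest reporter above background, or as the measured value where that was higher. The brighter level was taken as measured. A bound thus moves with the dimmest detected reporter of each array and is not a strict minimum.

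The other 4 male sets gave no call for dme-miR-1010. In Samarkand males it measured 6.24, 6.11, 6.77 and 6.17 at PF, against 5.91, 6.05, 5.84 and 5.91 early (adjusted p = 0.0602). In Canton-S males the values were 6.42, 6.70, 6.07 and 6.05 at PF, against 5.98, 6.21, 5.97 and 6.01 early (adjusted p = 0.215). A single PF sample was above background in each of these. In D. simulans males dme-miR-1010 measured 6.17, 6.21, 6.48 and 6.04 at PF, against 5.75, 6.17, 6.16 and 6.04 early (adjusted p = 0.407), and 1 sample was detected, at PF. In Oregon-R males the values were 5.91, 5.87, 6.09 and 6.16 at PF, against 5.89, 5.97, 5.97 and 6.15 early (adjusted p = 0.963), all below background. Averaged over the 4 D. melanogaster male strains the rise was called (6.45 at PF, 6.04 early, adjusted p = 3.35e-05), with 4 of 16 PF and 0 of 16 early samples above background, which gives no fold.

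**Figure D2:**
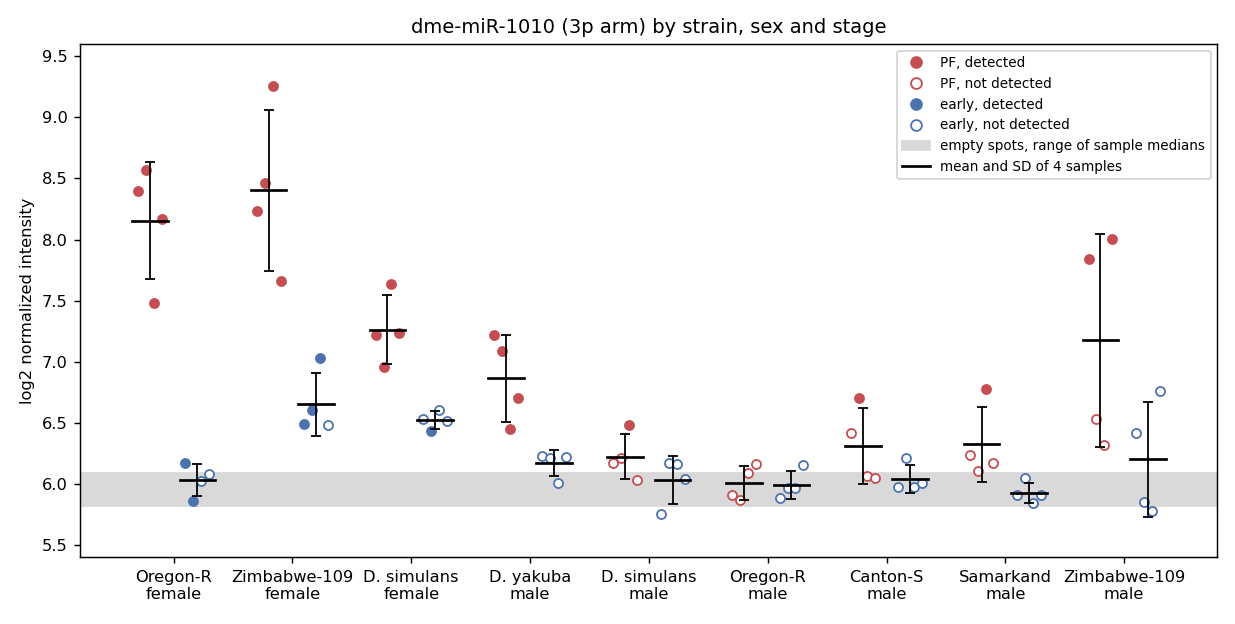
Normalized log2 intensity of dme-miR-1010 in all 72 samples by strain and sex, PF (red) left of early (blue), filled where detected. Black bars are the mean and SD of 4 samples, and the grey band is the range of the empty-spot medians over samples. The highest means were 8.40 and 8.16, in Zimbabwe-109 and Oregon-R females at PF, and every early group of males lay at or just above the band.

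The stage change of dme-miR-1010 differed between the sexes. Over Oregon-R and Zimbabwe-109 it was larger in females by 1.44 on the log2 scale (SE 0.17, adjusted p = 1.15e-09), one of 2 members with a larger change in females, where 22.8% of reporters differed. In Oregon-R alone the difference was 2.10 (SE 0.25, adjusted p = 8.11e-10), one of 3 member calls (26.1% of reporters). The other 2 were dme-miR-1012, and dsi-miR-1006*, whose change was lower in females (log2 difference -0.43, SE 0.15). The value for dsi-miR-1006* rests on the groups through which it passed the filter, 9 of 14 alternative settings did not give the call, and neither did 6 of the 8 fits that left out 1 replicate. In Zimbabwe-109 it was 0.78 (SE 0.25, adjusted p = 0.0247), the only member call (11.8%), and 11 of 15 alternative settings did not give that call. In D. simulans the difference was 0.55 (SE 0.25, adjusted p = 0.277) and 0 of 6 members differed by limma (1 at an unadjusted p under 0.05), where 5.15% of reporters did. Since early males were below background, these differences set the change in females against changes that began at the level of no signal. In Oregon-R females the early mean, 6.04, lay at that level too. In the authors' deposited processed values, when used in place of the scanner values, the averaged difference was -2.10 (adjusted p = 0.696). There 187 of the 720 member values were below 1, the lowest being 0.000189, so log2 differences of dim samples were large.

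Levels of dme-miR-1010 at PF followed the same split, though for levels sex and slide cannot be told apart. In Oregon-R and Zimbabwe-109 the female level was higher than that of males (log2 difference 1.69, SE 0.17, adjusted p = 4.54e-12). With 8 of 8 female but 2 of 8 male samples above background, no fold is given. It was one of 2 members higher in females, where 53.3% of reporters differed. In D. simulans it was also higher in females (1.04, SE 0.24, adjusted p = 0.00127), with 4 of 4 female and 1 of 4 male samples detected, the only member called (13.6%). Of 15 alternative settings 5 did not give that call. At the early stage dme-miR-1010 gave no call between the sexes in D. melanogaster (0.25, SE 0.17, adjusted p = 0.28), though 7 of 15 alternative settings did call it. Above background were 5 of 8 female and 0 of 8 male samples. In D. simulans it gave no call at that stage (0.49, SE 0.24, adjusted p = 0.194). Of the members, 1 early level, that of dsi-miR-1006*, differed between the sexes in D. melanogaster, where 35.7% of reporters did. Of 14 alternative settings 4 did not give this call, which rests on a group that let it pass the filter. In D. simulans 0 members differed early (11.8% of reporters did), with 1 at an unadjusted p under 0.05 by limma.

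Among the male strains of D. melanogaster the stage change of dme-miR-1010 also differed (F test, adjusted p = 0.0137), one of 2 members, where 21.3% of reporters did. So did its PF level (adjusted p = 0.00137, not called in 4 of 15 alternative settings), one of 2 members (28.3%), while at the early stage its level gave no call (adjusted p = 0.828), 1 other member did, and 31.6% of reporters did. Zimbabwe-109 supplied the high values, and for the levels strain and slide were not separated. Without Zimbabwe-109 male replicate 1 the F test of the stage change gave an adjusted p of 0.114, and without replicate 4 an adjusted p of 0.0711. In D. yakuba males the stage change and the PF level gave no call against D. melanogaster males (0.28, SE 0.19, adjusted p = 0.309, and 0.41, SE 0.19, adjusted p = 0.0867).

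Ordered by group mean, dme-miR-1010 was highest in Zimbabwe-109 females at PF (8.40 ± 0.66, SD, n = 4) and Oregon-R females at PF (8.16 ± 0.48), which differed by less than an SD. A gap larger than either SD separated them from D. simulans females at PF (7.26 ± 0.28). Then came Zimbabwe-109 males at PF (7.18 ± 0.87), D. yakuba males at PF (6.87 ± 0.35), Zimbabwe-109 females early (6.65 ± 0.26) and D. simulans females early (6.52 ± 0.07). Each of these differed from the next by less than the larger SD of the pair. The other 11 groups had means of 5.93 to 6.32.

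The opposite arm of miR-1010 was at most dim. dps-miR-1010* was detected at PF only, in 8 samples, of which 3 were Oregon-R females. Its group means ran from 5.98 to 6.36. In Oregon-R females at PF, the group through which it passed the filter, it averaged 6.36, against 6.01 early, where 0 of 4 samples were above background. In Canton-S males it was called with 1 of 8 samples above background (6.30 at PF and 6.13 early, adjusted p = 0.0349), which gives no fold. Of 15 alternative settings 6 did not give that call, nor did 2 of the 4 fits that left out 1 replicate (adjusted p up to 0.17). The array lists it for D. pseudoobscura and D. simulans.

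dme-miR-1012, the 3p arm of miR-1012, was the brightest member, reaching a group mean of 9.12 in Oregon-R females at PF. It rose at PF in 6 of the 9 strain and sex sets, males and females included, and was not found in D. yakuba. In Oregon-R females it measured 9.05, 8.87, 9.10 and 9.45 at PF, against 7.98, 7.61, 7.75 and 6.43 early. In Zimbabwe-109 females the values were 8.96, 8.83, 9.26 and 8.76 at PF, against 7.85, 7.46, 8.18 and 8.17 early. In both sets all 8 samples were above background and the stages did not overlap. The rise was 3.20-fold in Oregon-R females (1.68, SE 0.24, adjusted p = 3.06e-08) and 2.05-fold in Zimbabwe-109 females (1.04, SE 0.24, adjusted p = 0.00024).

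Males of 3 D. melanogaster strains showed the rise of dme-miR-1012 as well. In Canton-S males it measured 9.02, 9.12, 7.94 and 8.46 at PF, against 6.77, 7.01, 6.72 and 7.13 early, a 3.31-fold rise (1.73, SE 0.24, adjusted p = 2.46e-08). In Samarkand males the values were 9.18, 8.70, 7.93 and 7.83 at PF, against 7.37, 7.14, 7.48 and 6.71 early, a 2.35-fold rise (1.23, SE 0.24, adjusted p = 3.45e-05). In Zimbabwe-109 males they were 8.19, 7.82, 8.40 and 7.90 at PF, against 7.05, 6.83, 7.48 and 7.09 early, a 1.95-fold rise (0.97, SE 0.24, adjusted p = 0.000673). In each of these 3 sets the stages did not overlap, with 4 of 4 PF and 2 of 4 early samples above background.

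Oregon-R males stood apart. Their values were 8.47, 7.65, 6.82 and 7.23 at PF, against 7.52, 8.60, 6.03 and 6.92 early, so the stages overlapped and no change was called (0.28, SE 0.24, adjusted p = 0.471). Replicate 3 had the highest early value, 8.60, and a lower PF value, 7.65. Without it the rise was 0.68 (adjusted p = 0.0326). The F test of the stage change among the 4 male strains gave an adjusted p of 0.00745 with all arrays and 0.0854 without that replicate. Averaged over the 4 strains, the rise in D. melanogaster males was 2.07-fold (1.05, SE 0.12, adjusted p = 4.16e-11), and 2.56-fold in D. melanogaster females (1.36, SE 0.17, adjusted p = 5.63e-10). In the males 15 of 16 PF and 9 of 16 early samples were above background.

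In D. simulans dme-miR-1012 rose in males and gave no call in females. The male stage change gave no call against that of D. melanogaster males (log2 difference -0.27, SE 0.27, adjusted p = 0.85). D. simulans males measured 7.33, 8.31, 7.29 and 7.33 at PF, against 6.54, 7.40, 6.59 and 6.63 early. Replicate 2 was the high sample at both stages, its early value lying above the other 3 PF values. All 4 arrays had the higher value at PF (1.72-fold, 0.78, SE 0.24, adjusted p = 0.00709), a call that 6 of 15 alternative settings did not give. Above background were 4 of 4 PF and 2 of 4 early samples of these males. D. simulans females measured 8.37, 7.47, 8.06 and 7.54 at PF, against 7.32, 7.53, 7.55 and 7.49 early, with overlap and no call (0.39, SE 0.24, adjusted p = 0.233). The stage change in D. simulans females was lower than in D. melanogaster females (log2 difference -0.97, SE 0.30, adjusted p = 0.0108), a call that 7 of 14 alternative settings did not give. Without D. simulans female replicate 2 it was -0.84 (adjusted p = 0.0614), and without replicate 4 -0.87 (adjusted p = 0.054). Their PF level was 0.443 times that of D. melanogaster females (-1.18, SE 0.30, adjusted p = 0.00246). With slide as a block it was -1.41 (adjusted p = 0.00242). Between D. simulans and D. melanogaster males 0 of 6 members differed by limma in stage change (1.47% of reporters did), in early level (7.35%) or in PF level (9.56%). At an unadjusted p under 0.05 these counts were 0, 0 and 1, and for dme-miR-1012 the PF difference was -0.60 (SE 0.27, adjusted p = 0.156).

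In D. yakuba males dme-miR-1012 was at the level of empty spots in every sample. It measured 5.90, 5.98, 5.92 and 5.93 at PF, against 5.92, 6.02, 5.91 and 6.03 early, all within the range of the empty-spot medians. At PF the level was lower than in D. melanogaster males (means 5.93 in D. yakuba and 8.17 in D. melanogaster, adjusted p = 1.8e-09), with 0 of 4 and 15 of 16 samples above background. The bound defined above gave 4.25-fold, from a D. yakuba level of 6.08, which lies within the range of the empty-spot medians. By the same rule that level was 6.64 early. At the early stage the measured level was lower too (means 5.97 and 7.12, adjusted p = 0.000787), with 0 of 4 and 9 of 16 above background, so no fold is given. It was one of 2 members lower at PF, where 35.3% of reporters differed, and the only one at the early stage (26.8%). With both stages below background in D. yakuba, no stage change of dme-miR-1012 could be measured there, so the fitted difference from D. melanogaster males in stage change is not read as a result. On the slide that D. yakuba shared with 2 arrays of Samarkand males, the PF means were 5.93 and 8.94. With slide as a block and the linked strains Samarkand and Zimbabwe-109 only, the PF level was again lower in D. yakuba (adjusted p = 5.29e-07). The D. yakuba sequence of this arm was not analysed here, and a mismatch to the reporter was not tested.

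Ordered by group mean, the 16 groups of dme-miR-1012 other than D. yakuba ran from 9.12 ± 0.24 in Oregon-R females at PF to 6.79 ± 0.41 in D. simulans males early (SD, n = 4), with no step between neighbours above the larger SD. A step of 0.82, above both SDs, then led to D. yakuba at the early stage (5.97 ± 0.06) and at PF (5.93 ± 0.03).

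**Figure D3:**
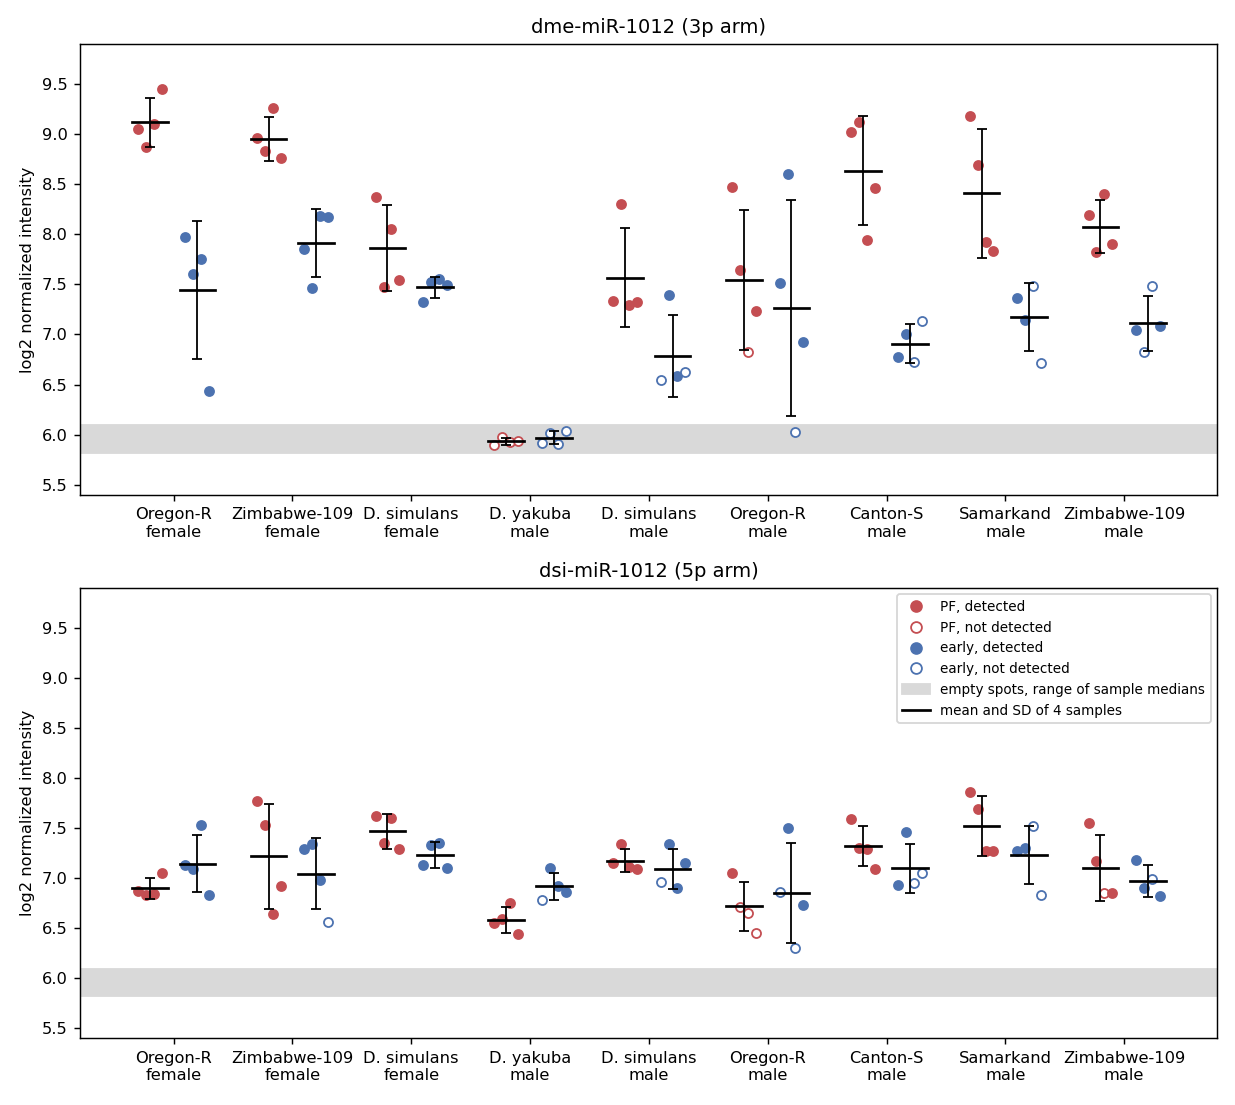
Normalized log2 intensity of the 3p arm (dme-miR-1012, top) and the 5p arm (dsi-miR-1012, bottom) of miR-1012 in all 72 samples, PF (red) left of early (blue), filled where detected. Black bars are the mean and SD of 4 samples and the grey band is the range of the empty-spot medians. The 3p arm lay in the band in D. yakuba and rose at PF in 6 of 9 sets, while the 5p arm lay above the band in D. yakuba and stayed between group means of 6.58 and 7.52.

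dsi-miR-1012, the reporter of the 5p arm of miR-1012, was detected in all 6 strains and was called in 0 of the 9 sets by limma (2 at an unadjusted p under 0.05). The array lists it for D. simulans only, and a mismatch to this arm in D. melanogaster or D. yakuba was not tested. Its group means ran from 6.58 in D. yakuba males at PF to 7.52 in Samarkand males at PF, and no 2 neighbours in the order of the 18 means differed by more than the larger SD. In Canton-S males, where the 3p arm rose most among males, it measured 7.59, 7.31, 7.29 and 7.10 at PF, against 6.93, 7.46, 6.95 and 7.05 early (0.22, SE 0.14, adjusted p = 0.217). In Oregon-R females it measured 6.87, 6.83, 6.84 and 7.05 at PF, against 7.13, 7.09, 7.53 and 6.83 early (-0.25, SE 0.14, adjusted p = 0.125). The stages overlapped in both. In D. yakuba males it measured 6.55, 6.59, 6.75 and 6.45 at PF, against 6.78, 7.10, 6.92 and 6.86 early (-0.33, SE 0.14, adjusted p = 0.0542). There all 4 PF samples lay below all 4 early ones, and 7 of 8 samples were above background.

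The stage changes of the 2 arms of miR-1012 were then set side by side on the same arrays. The pair was chosen after the changes above had been seen, so its values are a description with no test. The 5p reporter is not listed for D. melanogaster, and a mismatch there was not tested. In D. melanogaster males the change of the 3p arm exceeded that of the 5p arm on 15 of 16 arrays, by a mean of 0.92 ± 0.54 on the log2 scale (SD, n = 16). In D. melanogaster females it did so on 8 of 8 arrays, by 1.39 ± 0.79 (SD, n = 8). Over the 18 group means the arms had a Pearson correlation of 0.48, where all groups share the array design and the normalization.

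Between species the signal of the 5p reporter differed as follows, and a mismatch to the reporter was not tested. In D. yakuba males at PF it was 0.668 times the D. melanogaster level (log2 difference -0.58, SE 0.16, adjusted p = 0.00434), which 6 of 17 alternative settings did not call. Its stage change there was lower by 0.46 (log2 difference -0.46, SE 0.16, adjusted p = 0.035), which 8 of 15 did not call. It was one of 2 members called, the other being dme-miR-1012, where 19.5% of reporters were. In D. simulans females at PF, where the 3p arm was lower than in D. melanogaster females, the 5p arm was 0.41 higher without a call (SE 0.18, adjusted p = 0.0721), and 0.94 higher with slide as a block, as given above. At the early stage the slide block gave 0.66 for the 5p arm and -0.44 for the 3p arm (adjusted p = 0.342). The PF level of the 5p arm also differed among the D. melanogaster male strains (F test, adjusted p = 0.0114, not called in 5 of 15 alternative settings), from 6.72 ± 0.25 in Oregon-R to 7.52 ± 0.30 in Samarkand (SD, n = 4 each). For this level strain and slide were not separated.

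Between the sexes, the stage change of the 3p arm of miR-1012 was larger in D. melanogaster females than in males by 0.73 (SE 0.24, adjusted p = 0.02), which 8 of 14 alternative settings did not call. It rested on Oregon-R, where the difference was 1.40 (SE 0.35, adjusted p = 0.00141), against 0.07 in Zimbabwe-109 (SE 0.35, adjusted p = 0.964). Without Oregon-R male replicate 3 the averaged difference was 0.53 (adjusted p = 0.0922), without Oregon-R female replicate 4 it was 0.49 (adjusted p = 0.122), and without Zimbabwe-109 female replicate 2 it was 0.67 (adjusted p = 0.0527). At PF the female level of dme-miR-1012 was 2.34 times that of males in Oregon-R and Zimbabwe-109 (1.23, SE 0.24, adjusted p = 3.28e-05), and in D. simulans the difference was 0.29 (SE 0.34, adjusted p = 0.752). For these levels sex and slide cannot be told apart.

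dme-miR-1003, the 3p arm of miR-1003, passed no filter, but the array held a further reporter with the identical target, dme-wu-mir-2140-3p, found by comparing the sequences. That reporter was detected in 11 of 72 samples, including all 8 in which dme-miR-1003 was detected, and over the 72 samples the normalized values of both had a Pearson correlation of 0.87. dme-miR-1003 measured 6.14, 6.26, 7.44 and 6.99 in Zimbabwe-109 females at PF, against 6.07, 6.12, 6.23 and 6.43 early. In Oregon-R females the values were 6.70, 6.62, 6.00 and 6.12 at PF, against 6.42, 6.10, 5.87 and 6.11 early. In each set 2 PF samples stood out and the stages overlapped, though all 8 arrays had the higher value at PF. In the other 14 groups the means of dme-miR-1003 were 5.84 to 6.15.

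The reporter of the same target passed the filter through Zimbabwe-109 females at PF (3 of 4 detected), so a high value there was part of its selection. It averaged 7.01 ± 1.02 there, against 6.27 ± 0.14 early (SD, n = 4 each), with 1 of 4 early samples above background. In Oregon-R females, which that filter did not rest on, it averaged 6.60 ± 0.46 at PF and 6.17 ± 0.19 early (log2 difference 0.43, SE 0.16, adjusted p = 0.0169), with 2 of 4 samples above background at each stage. In the other 7 sets it was not called. In D. simulans females at PF it averaged 6.21 ± 0.14 (SD, n = 4), with 1 of 4 samples above background.

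The 5p arms of miR-1003 and miR-1006 were dim and lower at PF where they were called. dsi-miR-1003* fell at PF in Zimbabwe-109 males (log2 difference -0.30, SE 0.08, adjusted p = 0.00113), a call that 6 of 15 alternative settings did not give. In Oregon-R females it was -0.20 (SE 0.08, adjusted p = 0.0237), a call lost in 10 of 15 settings and in 2 of the 4 fits that left out 1 replicate. In Zimbabwe-109 females, whose early group let it pass the filter, it was -0.21 (SE 0.08), a fall kept in 5 of 15 settings and in 1 of the 4 such fits. In these sets 1 to 3 samples of 4 were above background at each stage, and the group means were 6.12 to 6.48. dsi-miR-1006* averaged 6.17 ± 0.24 at PF and 6.69 ± 0.38 early in Oregon-R females (SD, n = 4 each; log2 difference -0.53, SE 0.11), with 3 of 4 and 4 of 4 samples above background. These are the groups through which it passed the filter. At the early stage it averaged 6.69 in females and 6.11 in males of Oregon-R. In Zimbabwe-109 it averaged 6.24 in females and 6.21 in males, and 1 of these 8 male samples was above background. The early level of dsi-miR-1003* differed among the D. melanogaster male strains (F test, adjusted p = 0.00715), being 6.48 ± 0.14 in Zimbabwe-109 (SD, n = 4), with 1 of 16 samples above background. Of 14 alternative settings 7 did not give that call, and strain and slide were not separated. The direction turned with the scaling in Zimbabwe-109 females. With the loess curve fitted on detected reporters only, dsi-miR-1003* was 0.86 higher at PF there, and dsi-miR-1006*, -0.13 without a call before, was 0.95 higher (adjusted p = 0.00521).

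**Figure D4:**
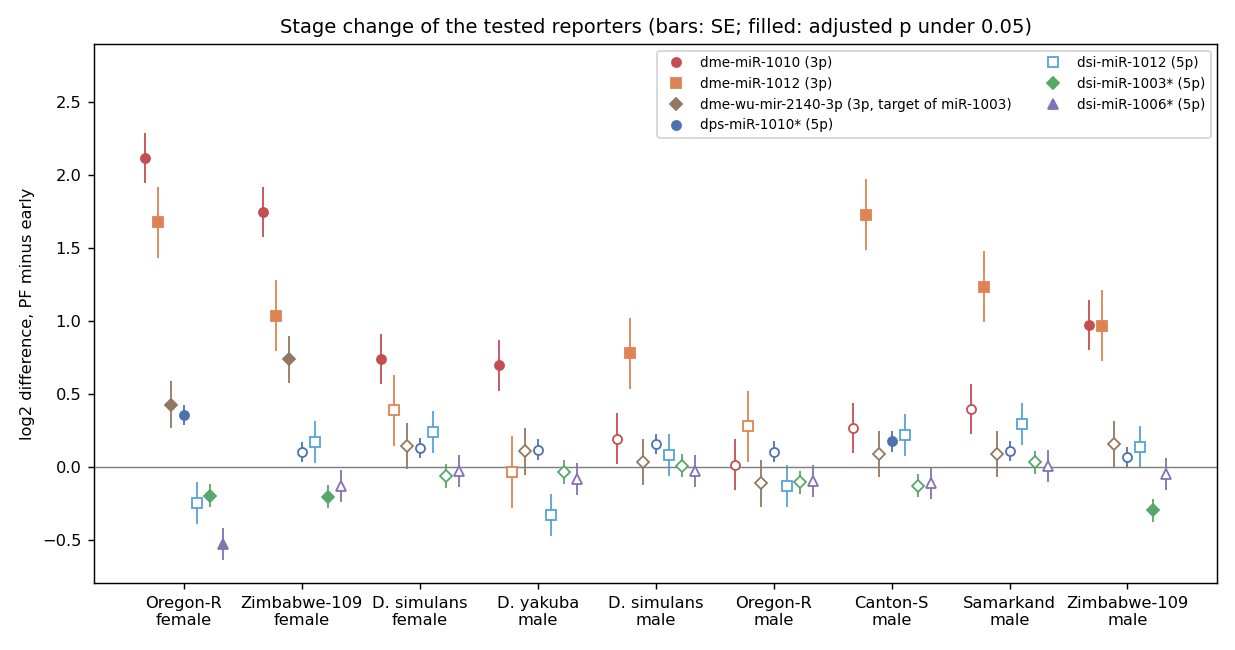
Log2 difference, PF minus early, of the 6 tested members and of dme-wu-mir-2140-3p, which has the target of dme-miR-1003, in the 9 strain and sex sets. Bars are the SE, and filled symbols passed an adjusted p of 0.05. The 3p reporters (red, orange and brown) hold the large rises, up to 2.12 for dme-miR-1010 in Oregon-R females, while the 5p reporters lie between -0.53 and 0.35.

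The miRNAs whose 18 group means ran most like those of the members were found among 64 reporters listed for D. melanogaster and tested. For dme-miR-1010 they were miR-988 (Pearson r = 0.93 over 18 groups), miR-307 (0.86) and miR-79 (0.82). For dme-miR-1012 they were miR-988 (0.56), let-7 (0.53) and miR-9a (0.49). The 2 mirtrons had a correlation of 0.60 with each other. For dsi-miR-1003* and dsi-miR-1006*, whose group means lay between 5.99 and 6.69, the closest was miR-2493* (0.71 and 0.73), followed by miR-958 (0.41) and miR-34 (0.37) for the first and by miR-263b (0.45) and miR-34 (0.44) for the second. These values describe likeness across groups that share arrays and normalization.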

How the data were processed

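Small RNA of 72 samples was hybridised on 36 two-colour LC Sciences arrays, and the deposited scanner intensities are the median and SD of each spot in Cy3 and Cy5, per the file headers, with no normalization. The authors' processed intensities, deposited as one table of the same arrays, have no stated scale or centring. Their column medians ran from 0.00297 to 4.2, and their rank correlation with the scanner values was at least 0.974. They were used as an alternative only.

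Background was corrected with limma (normexp, offset 50) against the empty spots. Within arrays loess was fitted with control spots at weight 0, average intensities were quantile normalized (Aquantile), and the median of 3 spots was taken on the log2 scale. limma 3.58.1 in R 4.3.3 fitted the 18 groups and the dye, with the array as a random block (correlation 0.493), and p-values were adjusted by Benjamini-Hochberg within each comparison. The fit was tested on simulated data. The array pairs the stages by design. As a check, the deviations from the group means were correlated between both samples of each array. The values ran from -0.192 to 0.772, and 27 of the 36 arrays exceeded 0.1. Reporters were named by the miRNA names, and the 3 most similar miRNAs by correlation over group means. The members, lists and tests were chosen with earlier results of these data known. Precision is limited by 4 arrays per set. Alternatives covered the background correction, the normalization, the filter, the block, the dye term, the slide and each replicate left out. Host genes and chromosome arms come from RefSeq Release 6.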

Additional observations from a re-analysis of the deposited data

Results flagged for a closer look

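Of 108 sets of 4 samples examined, 6 tested members in 18 groups, 7 held a sample far from the other 3, where chance gives about 1 in 20. dme-miR-1012 in D. simulans male replicate 2 was at 8.31 at PF (the others at 7.29 to 7.33) and at 7.40 early (the others at 6.54 to 6.63). Both samples are from 1 array. The other 5 lay near the level of empty spots. They were dme-miR-1010 in Canton-S male early replicate 2 (6.21) and D. yakuba male early replicate 3 (6.01), dps-miR-1010* in Oregon-R female early replicate 1 (5.83) and D. yakuba male early replicate 1 (6.20), and dsi-miR-1006* in Oregon-R male PF replicate 3 (5.68).

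Stage changes differed between groups by a test of the difference in these cases. Females minus males, the log2 difference for dme-miR-1010 was 2.10 in Oregon-R, 0.78 in Zimbabwe-109 and 1.44 over both, for dme-miR-1012 1.40 in Oregon-R and 0.73 over both, and for dsi-miR-1006* -0.43 in Oregon-R, where its groups had let it pass the filter. D. yakuba minus D. melanogaster males, it was -0.46 for dsi-miR-1012. The fitted -1.09 for dme-miR-1012 has both D. yakuba stages below background, so it measures no change there. D. simulans minus D. melanogaster females, it was -1.19 for dme-miR-1010 and -0.97 for dme-miR-1012. Among the male D. melanogaster strains the adjusted p of the F test was 0.0137 for dme-miR-1010 and 0.00745 for dme-miR-1012.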

How the results depend on the processing

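Of 262 values of the main results under other settings, 210 kept their direction and their side of the threshold (counts stayed within 1.5 times), 32 lost the call, 6 turned and 14 counts moved. The cause was not tested where none is named. The PF level of dme-miR-1012 in D. yakuba against D. melanogaster males stayed called under every setting in which this reporter had a value, those that left out a replicate included. A setting that left 4 members gave it no value. The most dependent was the sex difference in the stage change of dme-miR-1012 in D. melanogaster. It lost its call with median centring (0.82), loess on detected reporters (0.39), quantile normalization (0.31), a smaller normexp offset (0.51), no filter (0.73) and the authors' values (0.0748), and turned with the authors' values centred (-0.31). The dme-miR-1010 sex difference in D. melanogaster was 0.93 without a call after background subtraction, -2.10 with the authors' values and -2.48 with these centred, and in Zimbabwe-109 it was -2.25, -5.22 and -6.20.

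The D. simulans minus D. melanogaster female stage change of dme-miR-1010 was -0.86 after subtraction, -0.81 with the authors' values and 0.0467 with these centred. That of dme-miR-1012 was -0.97 with median centring, -0.66 with loess on detected reporters, -0.83 with quantile normalization, -0.67 and 0.18 with the authors' values as given and centred, and -0.97 with no filter, each without a call. The fitted D. yakuba minus D. melanogaster male stage change of dme-miR-1012, with all D. yakuba samples below background, was -0.60 with loess on detected reporters, 1.35 and -2.58 with the authors' values as given and centred. The rise of dme-miR-1012 in D. melanogaster females was 1.11 and 0.15 without a call in these, and that of dme-miR-1010 1.77 with the centred ones. The F test among male strains gave adjusted p of 0.0762, 0.358, 0.0863, 0.0676 and 0.676 for dme-miR-1010 (median centring, loess on detected reporters, no filter, authors' values, centred), and 0.0525, 0.515 and 0.997 for dme-miR-1012 (no filter, authors' values, centred).

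Of the 9 sets, dme-miR-1010 rose in 2 with the authors' values as given or centred. dme-miR-1012 rose in 3 with loess on detected reporters, 3 with the authors' values and 0 with these centred. dsi-miR-1012 rose in 2 with median centring and in 1 with loess on detected reporters, quantile normalization or only the arrays of the set. It fell in 2 with cyclic loess and in 1 with the smaller offset, no background correction, the authors' centred values or only the arrays of the set.

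Among single values, with loess on detected reporters dsi-miR-1003* changed by 0.86 in Zimbabwe-109 females, 0.0245 in D. melanogaster males and 0.40 in females, and dsi-miR-1006* by 0.95 in Zimbabwe-109 and 0.17 in D. melanogaster females. The early D. simulans minus D. melanogaster female level of dsi-miR-1012 was -0.74 with median centring, -0.80 without Aquantile and -1.26 with the authors' values, and that of dme-miR-1010 -0.78 without Aquantile. With the authors' values, the stage change in D. yakuba was 3.22 for dme-miR-1012 and 2.77 for dsi-miR-1003*. With these centred it was -3.22 for dps-miR-1010* and -1.06 for dme-miR-1010, and -3.75 and -5.61 against D. melanogaster males. There dme-miR-1012 changed by -1.12 in Zimbabwe-109 females, and dsi-miR-1012 in D. yakuba against D. melanogaster males was 4.91 early and 0.19 at PF.

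Without the array as replicate block, the pairing being by design, dme-miR-1012 lost its call in the sex difference (0.73, adjusted p = 0.157), the D. yakuba (-1.09, adjusted p = 0.0831) and D. simulans female (-0.97, adjusted p = 0.105) differences in stage change and the F test (adjusted p = 0.167), as did dme-miR-1010 in the F test (adjusted p = 0.305).

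Leaving out 1 replicate gave, for dme-miR-1010, a rise of 1.82 to 2.06 in D. melanogaster females, a sex difference of 1.33 to 1.57, a D. simulans female difference of -1.32 to -1.08, an F test of 0.00235 to 0.114, and 5 to 6 sets risen and 0 fallen. For dme-miR-1012 the ranges were 1.00 to 1.15 in males, 1.11 to 1.47 in females, 0.49 to 0.85 for the sex difference, -1.18 to -0.73 for D. simulans females, -1.19 to -1.03 for the D. yakuba stage change, -2.30 to -2.16 for its PF level and 0.00306 to 0.0854 for the F test, with 6 to 7 sets risen and 0 fallen. dsi-miR-1012 rose in 0 to 1 sets and fell in 0 to 2. A filter for reporters detected in all samples left 0 members, so it gave no value. Subtraction and a 5 SD threshold left 4 members each.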
